A study of Mus musculus with 18 samples.

Results

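The genes examined here are 10 genes by which microglia and macrophages are commonly recognized, namely *Csf1r*, *Cx3cr1*, *P2ry12*, *Tmem119*, *Aif1*, *Itgam*, *Ptprc*, *Trem2*, *Tyrobp* and *Cd68*. They were taken by name from a table of 47729 genes. The rule that picked them used no measured value, but it was set with earlier results of these data known. The samples were eyecups of *rd1* mice, an FVB/N strain with a mutation in *Pde6b* that loses its rods early in life, at postnatal day 40. In each of 9 mice, 1 eye was given an adeno-associated virus (AAV) carrying the human *NFE2L2* (Nrf2) cDNA behind the Best1 promoter together with AAV-Best1-GFP, and these eyes are called Best1-Nrf2. The fellow eye of each mouse was given the GFP vector without it and is called control, so that both groups carried the *rd1* allele, a subretinal injection and a GFP vector, while only Best1-Nrf2 eyes received a second vector. The labels give all 18 libraries as *rd1*, while the study's methods name fewer pairs for this strain and age. The Best1 promoter is active in the retinal pigment epithelium (RPE), and the immune cells themselves were not the intended target of either vector. The comparison of the eyes asked whether genes of resident microglia and genes of the activated state differed between Best1-Nrf2 and control eyes, and whether they did so alike.

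Microglia are the resident macrophages of the retina and the brain, and they depend on signaling through the receptor CSF1R. When photoreceptors die, microglia and macrophages can gather in the subretinal space beside the RPE and take up debris. In the resting state they are marked by the purinergic receptor P2RY12, the membrane protein TMEM119 and the chemokine receptor CX3CR1. In the activated state, the lipid receptor TREM2 signals through its adaptor TYROBP, and genes of the lysosome such as *Cd68* are raised.

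RNA was taken from the eyecup after the retina had been lifted off, so a library could hold RNA of the RPE and of any cell that stayed on it. In bulk samples of this kind, fewer cells of a type and less RNA per cell cannot be told apart. Library totals ranged from 18956748 to 49598700 counts, and 18958 genes passed the filter on low counts. With edgeR and mouse as a block, 806 genes (4.25%) passed the adjusted p threshold of 0.05, of which 592 (3.12% of those tested) were higher and 214 (1.13%) lower in Best1-Nrf2 eyes. The median log2 fold change of all genes tested was -0.03. *Nfe2l2*, the mouse counterpart of the delivered cDNA, was higher in 9 of 9 Best1-Nrf2 eyes (log2 fold change, 2.29, SE 0.21, adjusted p = 6.21e-05), a call that was lost with a covariate for rod and cone markers (1.91, adjusted p = 0.0698). Libraries of both groups held RPE markers at a summed level of 12780 to 71964 CPM (counts scaled to a common, TMM-adjusted library total). They also held 10 genes of the ocular surface epithelium, such as *Krt5* and *Krt12*, at a summed 3438 to 53849 CPM in the controls and 387 to 43217 CPM in Best1-Nrf2 libraries. This list was drawn up after its values were seen, and 0 of its genes passed with edgeR (also 0 at an unadjusted p under 0.05) against 1, lower, with DESeq2. A further measure that set libraries apart was the short-minus-long score, the mean log2 CPM of genes with under 1500 annotated exon bases minus that of genes with over 5000. It ran from -0.17 to 2.03 in control and from -0.03 to 2.17 in Best1-Nrf2 libraries and was the higher of the pair of eyes with Best1-Nrf2 in 5 of 9 mice.

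All 10 genes passed the filter on low counts, with at least 19 counts in every library. Of the 10, 4 were higher in Best1-Nrf2 eyes (*P2ry12*, *Trem2*, *Tyrobp* and *Cx3cr1*) and 0 were lower, beside 3.12% and 1.13% of all genes tested. The 4 genes came from both states, with *P2ry12* and *Cx3cr1* from the resident and *Trem2* and *Tyrobp* from the activation genes. The median log2 fold change of the 10 genes was 1.02, beside -0.03 over all genes tested. At the other end stood *Csf1r*, which was lower in 8 of 9 Best1-Nrf2 eyes without passing the test, while *Itgam* and *Ptprc* had estimates close to 0. The call of 4 higher genes was the same with every single mouse left out. It was 7 with DESeq2 (beside 4.96% of all genes), 7 with limma voom (4.87%) and 0 with a covariate for rod and cone markers (0.200%). At an unadjusted p under 0.05, 7 of the 10 were higher and *Csf1r* was lower, beside 12.8% of all genes tested in either direction, and DESeq2 also called *Csf1r* lower (beside 2.84% of all genes).

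**Figure D1:**
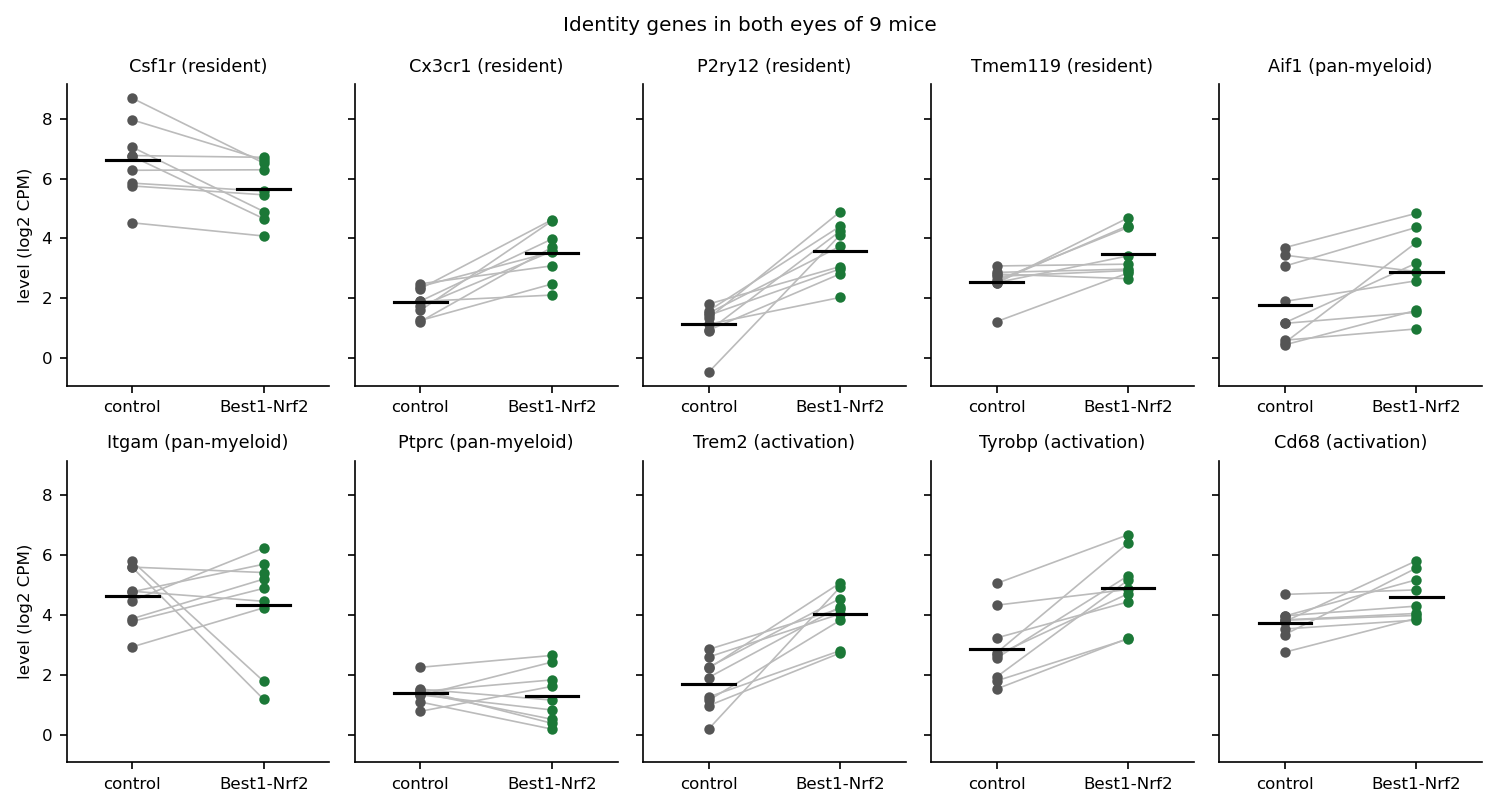
Level of each of the 10 genes in log2 CPM (y axis) in the control and the Best1-Nrf2 eye (x axis) of 9 mice. Points are libraries, gray lines join the eyes of a mouse and black bars are group means. *P2ry12*, *Trem2*, *Tyrobp*, *Cx3cr1* and *Cd68* were higher with Best1-Nrf2 in 9 of 9 mice, whereas *Csf1r* was lower in 8 of 9 and *Itgam* was far lower with Best1-Nrf2 in 2 mice.

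The genes are given by role, and their positions are on GRCm38. *P2ry12* encodes a receptor for ADP that guides the processes of resting microglia (ENSMUSG00000036353, chromosome 3, 59216272–59262871, minus strand). Its level was 0.668 CPM in the lowest, 2.47 in the median and 3.44 in the highest control library, and 4.02, 13.3 and 29.6 CPM in the Best1-Nrf2 libraries. Every Best1-Nrf2 library thus lay above every control library, the only one of the 10 genes for which the groups did not overlap, beside 1.05% of all genes tested that were higher without overlap. The estimated log2 fold change was 2.45 (SE 0.39, adjusted p = 0.00308, edgeR), a 5.48-fold difference, and 9 of 9 mice had the higher level with Best1-Nrf2, as did 3.12% of all genes tested. The gene lies within *Med12l*, on the opposite strand, and whether reads were counted by strand is not stated. *Med12l* itself had 6.29 CPM in control eyes and 5.81 CPM in the fellow eyes (adjusted p = 0.939).

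*Cx3cr1*, the receptor for fractalkine, also rose (ENSMUSG00000052336, chromosome 9, 119901616–120069879, minus strand). Control libraries ran from 2.28 to 5.54 CPM with a median of 3.67, and Best1-Nrf2 libraries from 4.25 to 24.6 CPM with a median of 11.8. The groups overlapped at the Best1-Nrf2 eyes of mice 4 and 6, whose levels of 4.25 and 5.51 CPM lay within the control range. For *Cx3cr1* the log2 fold change came to 1.66 (SE 0.31, adjusted p = 0.00773) with a higher level in 9 of 9 mice. Its annotated span takes in other genes, of which *Wdr48*, *Gorasp1*, *Ttc21a* and *Csrnp1* were tested and did not pass (adjusted p from 0.698 to 0.932).

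*Tmem119*, a membrane protein of unknown function that is used to tell microglia from other macrophages, did not pass the test (ENSMUSG00000054675, chromosome 5, 113793729–113800516, minus strand). It was at 2.28, 6.01 and 8.40 CPM in the lowest, median and highest control library and at 6.24, 8.76 and 25.7 CPM in the Best1-Nrf2 libraries. The Best1-Nrf2 eyes of mice 2, 5 and 7 stood apart at 20.6, 21.5 and 25.7 CPM, while those of the other mice were at 10.6 CPM or less and mostly overlapped the controls. An estimate of 0.95 was obtained (log2 fold change, SE 0.30, adjusted p = 0.135), and 8 of 9 mice were higher. With the short-minus-long score as a covariate, it was 1.00 and passed (adjusted p = 0.0349, edgeR), as it did with DESeq2 (adjusted p = 0.0227) and limma voom (adjusted p = 0.0408).

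*Csf1r*, the receptor that microglia and macrophages need for survival, was the most abundant of the 10 genes per length in control eyes and the one that leaned the other way (ENSMUSG00000024621, chromosome 18, 61100598–61132149, plus strand). Control libraries held 22.9 CPM at the lowest, 107 at the median and 412 at the highest, and Best1-Nrf2 libraries 16.9, 47.8 and 105 CPM. The groups overlapped widely, and on the log2 scale the differences of mice 1, 4 and 6 were the largest (-2.17, -2.15 and -2.08), with 412 and 91.6 CPM in mouse 1, whereas mouse 7 had 77.5 and 78.4 CPM. The log2 fold change of *Csf1r* was -0.97 (SE 0.29, adjusted p = 0.113), and -0.64 without mice 4 and 6 (adjusted p = 0.244). It passed with DESeq2 (-0.97, adjusted p = 0.0156) and with the short-minus-long score as a covariate (-0.94, adjusted p = 0.0451). *Hmgxb3*, which overlaps *Csf1r* on the opposite strand, had 15.4 CPM in control eyes and 14.2 CPM in the fellow eyes (adjusted p = 0.952).

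Of the 3 activation genes among the 10, *Trem2* had the largest estimate (ENSMUSG00000023992, chromosome 17, 48346401–48354147, plus strand). Its protein binds lipids and apolipoproteins at the surface of microglia and macrophages. The lowest, median and highest control libraries held 1.08, 3.70 and 7.15 CPM, and the Best1-Nrf2 libraries 6.56, 18.4 and 33.4 CPM. The groups nearly parted, since the Best1-Nrf2 eyes of mice 1 and 4, at 6.56 and 6.93 CPM, were the ones that fell below the highest control. The log2 fold change of *Trem2* was 2.30 (SE 0.33, adjusted p = 0.00143), a 4.94-fold difference, and it was higher in 9 of 9 mice.

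*Tyrobp*, which encodes the adaptor (also known as DAP12) through which TREM2 signals, rose with it (ENSMUSG00000030579, chromosome 7, 30413760–30417585, plus strand). It was at 2.83, 6.28 and 33.2 CPM in the lowest, median and highest control library and at 9.12, 28.8 and 103 CPM in the Best1-Nrf2 libraries. The control eyes of mice 3, 5 and 2, at 33.2, 20.02 and 9.35 CPM, reached into the Best1-Nrf2 range, but within each mouse the Best1-Nrf2 eye was higher. For *Tyrobp*, the log2 fold change was 2.01 (SE 0.32, adjusted p = 0.00282) and the fold 4.03.

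*Cd68*, a glycoprotein of lysosomes and late endosomes in macrophages, was higher in 9 of 9 mice but did not pass over all genes tested (ENSMUSG00000018774, chromosome 11, 69664213–69666153, minus strand). Control libraries held 6.70 to 25.7 CPM with a median of 14.1, and Best1-Nrf2 libraries 14.1 to 56.0 CPM with a median of 19.6. The Best1-Nrf2 eyes of mice 7, 8 and 9 lay above all controls, at 36.0, 56.0 and 47.3 CPM, and that of mouse 5 did so at 28.5 CPM. Its log2 fold change was 0.85 (SE 0.26, adjusted p = 0.119). The gene passed with DESeq2 (0.85, adjusted p = 0.0256) and with limma voom (1.00, adjusted p = 0.0202), and in edgeR with the ocular surface epithelium genes as a covariate (1.03, adjusted p = 0.0369).

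Of the genes shared by most macrophages, *Aif1* encodes the actin-binding protein IBA1, the usual stain for microglia (ENSMUSG00000024397, chromosome 17, 35170991–35176068, minus strand). Its levels were 1.31, 2.22 and 12.9 CPM in the lowest, median and highest control library and 1.91, 7.36 and 28.6 CPM in the Best1-Nrf2 libraries. The spread within a group was wide, with controls 3, 5 and 8 at 8.38 CPM or more and the other controls at 3.67 CPM or less. Between the eyes the log2 fold change was 1.08 (SE 0.35, adjusted p = 0.152), with mouse 5 as the exception to a higher level (10.8 CPM in the controls and 7.36 in Best1-Nrf2). *Aif1* passed with DESeq2 (1.07, adjusted p = 0.0254) and with limma voom (1.10, adjusted p = 0.0358).

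*Itgam*, the integrin chain CD11b of macrophages, neutrophils and other myeloid cells, did not differ beyond its spread (ENSMUSG00000030786, chromosome 7, 128062640–128118491, plus strand). It was at 7.58, 27.3 and 55.3 CPM in the lowest, median and highest control library and at 2.20, 29.6 and 75.4 CPM in the Best1-Nrf2 libraries. Mice 4 and 6 differed from the rest, with 55.3 and 48.0 CPM in their control eyes and 3.38 and 2.20 CPM in their Best1-Nrf2 eyes. *Itgam* showed an estimated change of 0.04 (log2, SE 0.69, adjusted p = 0.992) over 9 mice and 0.85 (adjusted p = 0.112) with both of these mice left out. Its sign also turned with upper-quartile scaling (-0.04) and with the rod and cone marker covariate (-4.01, adjusted p = 0.0658).

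*Ptprc*, which encodes the pan-leukocyte phosphatase CD45, was low in both groups (ENSMUSG00000026395, chromosome 1, 138062861–138175708, minus strand). Control libraries held 1.66, 2.57 and 4.70 CPM and Best1-Nrf2 libraries 1.08, 2.17 and 6.21 CPM at the lowest, median and highest. The groups overlapped, and the Best1-Nrf2 eye was the higher one in 4 of 9 mice, with mice 3 and 9 reaching 6.21 and 5.31 CPM. The log2 fold change of *Ptprc* was -0.12 (SE 0.31, adjusted p = 0.945), and its sign turned under several alternatives, as without the replicate block for mouse (0.09).

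Levels were compared between genes as RPKM, the CPM divided by the annotated exon length in kilobases. In control eyes the order of mean levels was *Csf1r* (23.5 ± 21.2 RPKM), *Tyrobp* (15.2 ± 15.1), *Cd68* (11.2 ± 4.14), *Itgam* (5.86 ± 3.43), *Aif1* (3.21 ± 2.96) and *Tmem119* (2.62 ± 0.726; SD, n = 9 each). *P2ry12* (0.906 ± 0.317 RPKM), *Cx3cr1* (0.836 ± 0.269), *Trem2* (0.755 ± 0.412) and *Ptprc* (0.146 ± 0.0458) followed. The ranges of all neighbors in this order overlapped. In Best1-Nrf2 eyes *Tyrobp* (59.6 ± 48.8 RPKM) and *Cd68* (21.97 ± 12.4) came first, followed by *Csf1r* (10.3 ± 5.87). *Aif1* (6.79 ± 5.96), *Itgam* (6.24 ± 4.66), *Tmem119* (5.56 ± 3.24), *P2ry12* (5.55 ± 3.25), *Trem2* (3.79 ± 1.87) and *Cx3cr1* (2.93 ± 1.60) were next, with *Ptprc* last (0.155 ± 0.101). There, the ranges of neighbors overlapped except that *Cx3cr1* was above *Ptprc* in every library. The exon length of *Ptprc* was 18313 bases over all its annotated transcripts, which lowers its value per length.

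**Figure D2:**
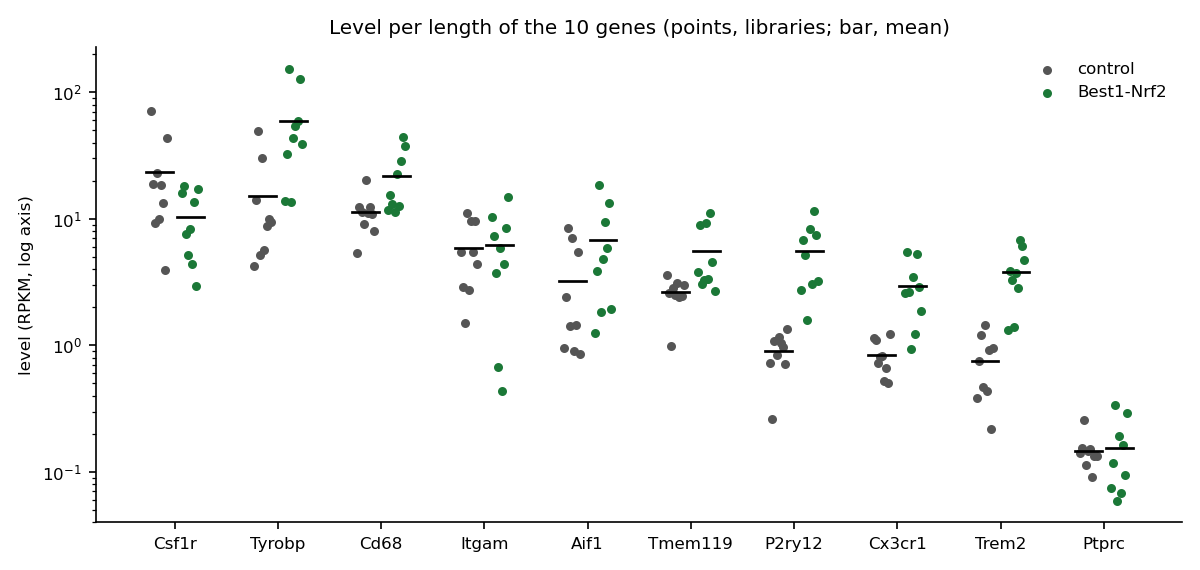
Level per length of the 10 genes in RPKM (y axis, log scale), ordered by the control mean. Points are libraries, 9 per group, and black bars are group means. *Csf1r* was the highest gene in control eyes and *Tyrobp* in Best1-Nrf2 eyes, and *Ptprc* was the lowest in both.

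Whether the activation genes moved more than the resident genes was tested directly. For each mouse, the log2 difference between eyes of 1 resident gene was subtracted from that of 1 activation gene, for 12 pairs of genes, and an exact permutation test (2-sided, by sign flips) was run, whose smallest p with 9 mice is 0.0039. The pairs share genes and are not independent. Each activation gene moved above *Csf1r* in 9 of 9 mice, by 3.31 ± 1.25 for *Trem2*, 2.99 ± 1.45 for *Tyrobp* and 1.84 ± 1.24 for *Cd68* (log2, SD, n = 9; exact p = 0.0039 and p adjusted over the 12 pairs = 0.0156 for each). Against *P2ry12* the difference was the other way for *Cd68*, by -1.60 ± 1.48, with *Cd68* ahead in 1 of 9 mice (exact p = 0.0156, adjusted p = 0.0469). That last adjusted p rose above 0.05 with any 1 of mice 1 to 8 left out, to 0.0938 at most. *Trem2* and *P2ry12* differed by -0.12 ± 1.27 (exact adjusted p = 0.832), and *Tyrobp* and *P2ry12* by -0.44 ± 1.57 (exact adjusted p = 0.520). Against *Tmem119*, *Trem2* was ahead by 1.39 ± 1.41 in 7 of 9 mice (exact adjusted p = 0.0563), and it passed without mouse 3 or mouse 5 (exact adjusted p = 0.0469). *Tyrobp* was ahead of *Tmem119* by 1.07 ± 1.53 (exact adjusted p = 0.135), and *Cd68* differed from it by -0.09 ± 1.42 (exact adjusted p = 0.832). The differences from *Cx3cr1*, of 0.69 ± 1.04 for *Trem2*, 0.37 ± 1.21 for *Tyrobp* and -0.79 ± 1.21 for *Cd68*, did not pass (exact adjusted p from 0.135 to 0.516). With all 9 mice, every pair that passed with the activation gene ahead was a pair with *Csf1r*. Its correlation with the 18 shared leukocyte genes given below was -0.32 over 18 libraries, -0.14 within control and 0.20 within Best1-Nrf2. That of *P2ry12* was 0.92, 0.42 and 0.88, of *Cx3cr1* 0.86, 0.21 and 0.75, and of *Tmem119* 0.61, -0.37 and 0.50. The pairs hold no covariate for the short-minus-long score, with which *Csf1r* fell and *Tyrobp* rose (values below).

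**Figure D3:**
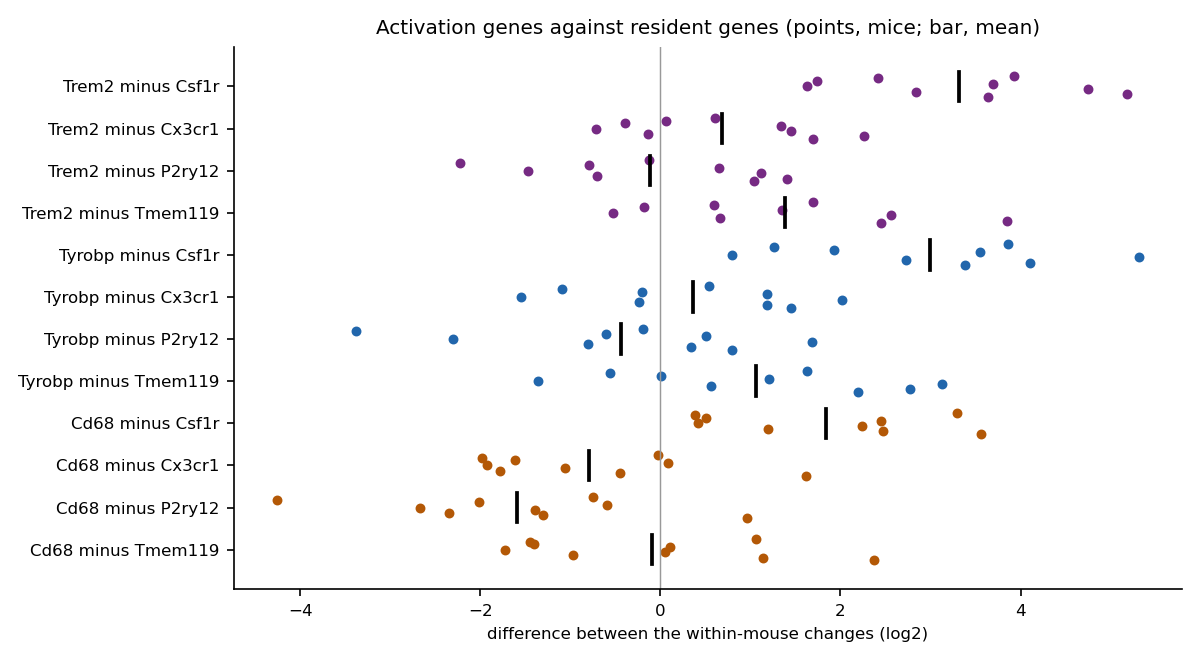
Difference between the within-mouse changes of an activation gene and a resident gene (x axis, log2) for 12 pairs of genes (y axis). Points are 9 mice and bars are means. The 3 pairs with *Csf1r* lie above 0 in 9 of 9 mice, *Cd68* minus *P2ry12* lies below 0 in 8 of them, and the other pairs spread over both sides of 0.

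The wider lists put the 10 genes in context. Of 13 genes of resident microglia, 12 were tested and 7 of them rose, beside 3.12% of all genes tested, with a median log2 fold change of 1.45 over the 12, beside -0.03 over all genes tested. *Siglech*, a lectin of microglia, rose from 1.63 ± 0.833 to 5.60 ± 2.46 CPM (log2 fold change, 1.78, adjusted p = 0.0341). *Olfml3*, a secreted protein that microglia make, rose from 2.99 ± 0.836 to 7.18 ± 2.51 CPM without overlap of the groups (1.24, adjusted p = 0.0144). *Selplg*, a ligand of selectins, rose by 1.17 (adjusted p = 0.0410). *Fcrls*, a low-level microglial receptor named after its values were seen, also rose, as did *P2ry12* and *Cx3cr1*. *Gpr34*, a lysophospholipid receptor, did not pass at 1.19 ± 0.654 and 6.21 ± 3.96 CPM (adjusted p = 0.0808). The count was 4 without mouse 2, 3, 5 or 7, each left out alone.

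Of 22 genes of the activated state, 6 rose and 0 fell, beside 3.12% and 1.13% of all genes tested, and the median log2 fold change was 0.46, beside -0.03. Besides *Trem2* and *Tyrobp*, these were *Cst7*, *Lpl*, *Ctsd* and *Spp1*. *Cst7*, an inhibitor of cathepsins typical of activated microglia, went from 0.424 ± 0.337 to 5.09 ± 3.14 CPM without overlap (3.69, adjusted p = 9.58e-05). *Lpl*, which encodes lipoprotein lipase, rose by 2.17 from 122 ± 35.2 CPM (adjusted p = 0.000182), and *Spp1*, which encodes the secreted protein osteopontin, by 1.11 from 25.7 ± 15.5 CPM (adjusted p = 0.00879). *Ctsd*, a lysosomal protease of many cell types, had 3582 ± 1323 CPM in control eyes and 15648 ± 7079 CPM in the fellow eyes (2.07, adjusted p = 0.000628). Several other genes of this list are expressed in the RPE itself and were at high levels here, among them *Apoe* at 6703 ± 2198 and 4349 ± 992 CPM (adjusted p = 0.438). The summed level of the list was 8368 to 20738 CPM in the controls and 16618 to 38777 CPM in Best1-Nrf2 libraries. In both groups *Apoe* and *Ctsd* had the highest mean levels of its genes.

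The list of 18 genes shared by macrophages and other leukocytes, which includes *Aif1*, *Itgam* and *Ptprc*, had 12 genes that rose and 0 that fell, beside 3.12% and 1.13% of all genes tested, with a median of 1.71, beside -0.03. Examples are *Adgre1*, which encodes the macrophage marker F4/80 (0.955 ± 0.607 and 4.54 ± 2.21 CPM, log2 fold change 2.28, adjusted p = 0.0251), and *Mpeg1*, a pore-forming protein of macrophages (2.11, adjusted p = 0.0119). *Cd53*, a tetraspanin of leukocytes, rose by 2.01 (adjusted p = 0.00769), and *Fcer1g*, an adaptor of Fc receptors, by 1.95 (adjusted p = 0.0115). *Coro1a*, an actin regulator of leukocytes, did not pass (6.09 ± 2.00 and 7.87 ± 2.07 CPM, adjusted p = 0.431). The summed level of the list ran from 107 to 228 CPM in the controls and from 158 to 687 CPM in Best1-Nrf2 libraries.

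**Figure D4:**
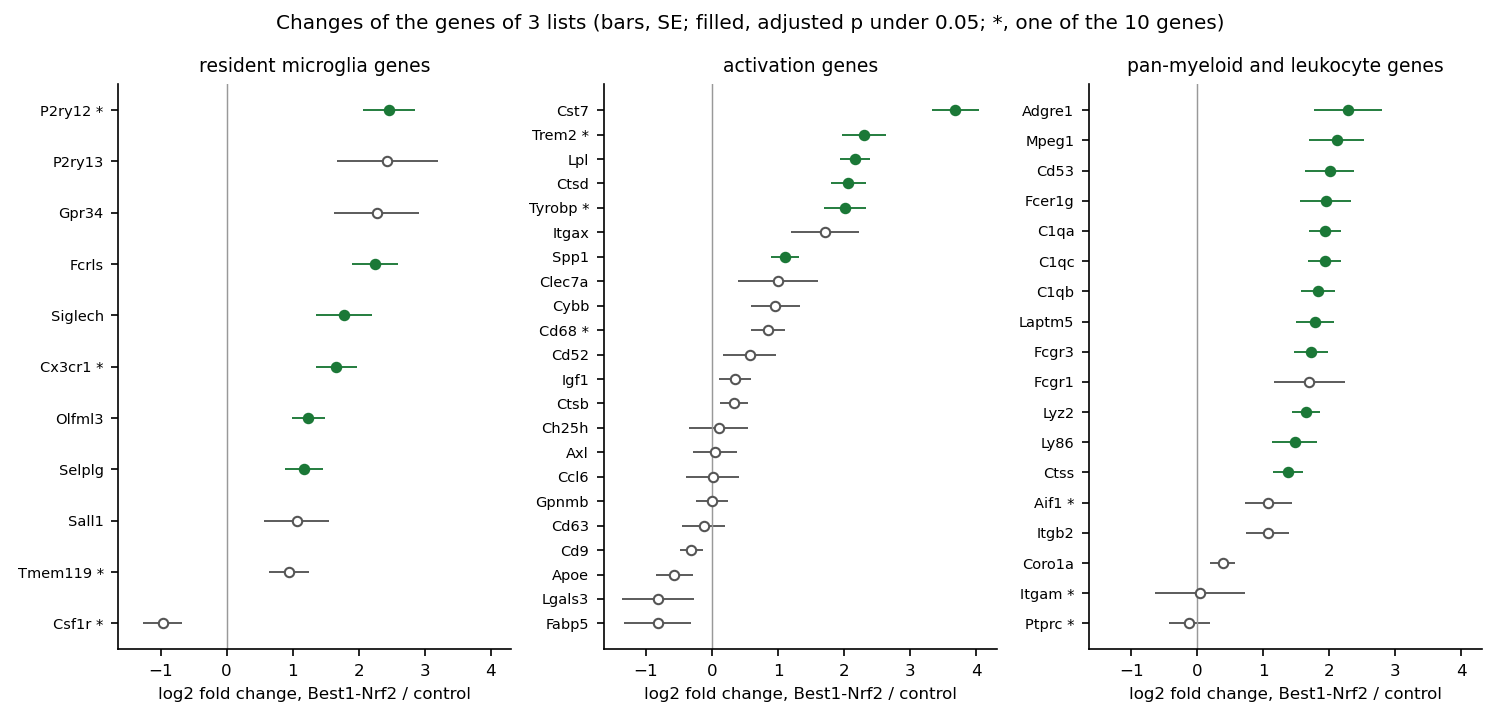
Log2 fold change between Best1-Nrf2 and control eyes (x axis) of tested genes of 3 lists, 1 of the resident list not shown. Bars are SE, filled points passed at an adjusted p under 0.05 in edgeR, and asterisks mark the 10 genes. Among the resident genes shown *Csf1r* is the single one below 0, and in the list of shared genes *Itgam* and *Ptprc* lie at 0 while 12 of the 18 genes rose.

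Genes of other immune cells gave few calls, but these lists held only 3 to 11 tested genes each. With edgeR, 3.12% of all genes tested were higher and 1.13% lower (12.8% at an unadjusted p under 0.05 in either direction). With DESeq2 and limma voom, 4.96% and 4.87% were higher. Lists this short cannot tell few calls from these shares. Of 11 genes of border-associated macrophages, 0 passed with edgeR (3 at an unadjusted p under 0.05), and 1 each passed with DESeq2 and limma voom. The highest of them, *Cbr2*, was at 1439 ± 1264 and 1620 ± 2418 CPM (edgeR adjusted p = 0.899). The next highest, *Stab1* (named after its values were seen), was at 11.4 and 18.1 CPM, so *Cbr2* held most of the list's summed level. Of 6 monocyte genes 3 were tested and 0 passed with edgeR, against 1 at an unadjusted p under 0.05 and 1 each with DESeq2 and limma voom. *Plac8*, the highest of them, was at 174 ± 164 and 157 ± 280 CPM and did not pass (log2 difference -1.10, adjusted p = 0.614). Its level was lower with Best1-Nrf2 in 6 of 9 mice. *Plac8* held most of the summed level of the monocyte list. That sum was 7.91 and 7.37 CPM in the Best1-Nrf2 eyes of mice 4 and 6, which were lowest in the ocular surface epithelium genes. It was 562 and 893 CPM in the control and Best1-Nrf2 eye of mouse 8, which were highest in them. Which cells the RNA of *Cbr2* and *Plac8* came from was not tested. *Ccr2*, a defining receptor of monocytes that was named after its values were seen, was at 0.621 and 0.680 CPM. Of 10 neutrophil genes 5 were tested and *Csf3r*, a receptor for granulocyte growth factor, rose from 0.790 ± 0.303 to 3.29 ± 2.25 CPM (1.83, adjusted p = 0.0374). The call was lost when any 1 of mice 1, 2, 3, 5, 7 and 9 was left out. *Ltf*, which encodes lactoferrin and was the highest neutrophil gene, did not pass (52.4 ± 64.6 and 38.7 ± 24.8 CPM, adjusted p = 0.980). Of 13 lymphocyte genes 3 were tested, and their summed level was at most 12.1 CPM in the controls and 7.19 CPM in Best1-Nrf2 libraries. For the lymphocyte, dendritic cell and mast cell lists, with 3 tested genes each, 0 genes passed with edgeR (also 0 at an unadjusted p under 0.05), DESeq2 or limma voom. The genes with the highest mean log2 CPM in these lists were *Cd3d* (0.853 and 0.707 CPM), *Zbtb46* (4.76 and 4.15 CPM) and *Tpsb2* (0.735 and 2.69 CPM), with adjusted p from 0.722 to 0.815.

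The ligands of the receptors were measured in the same libraries. *Csf1* and *Il34*, the ligands of CSF1R, both rose, from 7.03 ± 2.88 to 23.9 ± 10.98 CPM for *Csf1* (log2 fold change, 1.71, SE 0.23, adjusted p = 0.000899) and from 5.12 ± 2.29 to 10.8 ± 1.93 CPM for *Il34* (1.18, SE 0.23, adjusted p = 0.00983). Each was higher in 9 of 9 mice. *Cx3cl1*, the ligand of CX3CR1, was at 21.9 ± 10.5 and 33.6 ± 14.6 CPM and did not pass (adjusted p = 0.191). The growth factors *Tgfb1*, *Tgfb2* and *Tgfb3* and the inhibitory surface proteins *Cd200* and *Cd47* had log2 fold changes from -0.06 to 0.25 and adjusted p from 0.715 to 0.987. Of 10 myeloid transcription factors, *Cebpb* rose by 0.90 from 80.9 ± 18.04 CPM (adjusted p = 0.00371). *Spi1*, which encodes the macrophage factor PU.1, rose from 1.61 ± 0.543 to 4.09 ± 1.45 CPM by an estimate of 1.32 that stood at the threshold (adjusted p = 0.0495). That list had 1 call in place of 2 when any 1 of mice 1, 2, 3, 7, 8 and 9 was left out. Of 10 genes that signal below the receptors, such as *Lyn* (24.7 ± 19.1 and 26.9 ± 11.2 CPM), 9 were tested. Of these, 0 passed with edgeR (4 at an unadjusted p under 0.05) or limma voom, while 1 passed with DESeq2. Beside these lists, 3.12% of all genes tested were higher with edgeR, 4.96% with DESeq2 and 4.87% with limma voom. At an unadjusted p under 0.05 the share was 12.8% in either direction.

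Because PU.1 binds the promoters of many myeloid genes, the 250 bases before the annotated start were read from RefSeq (GRCm38.p6), in which 7 of the 10 genes were found. Those of *Trem2*, which rose, and of *Cd68* and *Itgam*, which did not pass, are shown because they hold no annotated exon of any gene and can be compared at the same length. They are written 5′ to 3′ on the strand of the gene, and capitals mark the core of the PU.1 motif, GAGGAA, searched on both strands. 
*Trem2*, chr17:48346151-48346400, plus strand: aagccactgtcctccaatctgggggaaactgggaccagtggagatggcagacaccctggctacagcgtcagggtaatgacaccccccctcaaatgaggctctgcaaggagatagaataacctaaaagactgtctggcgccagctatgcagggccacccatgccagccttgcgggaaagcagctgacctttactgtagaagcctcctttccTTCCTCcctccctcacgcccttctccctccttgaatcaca
*Cd68*, chr11:69666171-69666420, minus strand: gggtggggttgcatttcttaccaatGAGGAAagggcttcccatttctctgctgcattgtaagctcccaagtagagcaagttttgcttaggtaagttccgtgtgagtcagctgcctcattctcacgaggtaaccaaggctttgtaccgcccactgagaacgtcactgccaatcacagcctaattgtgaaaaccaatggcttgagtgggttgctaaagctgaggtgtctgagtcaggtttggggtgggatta
*Itgam*, chr7:128062390-128062639, plus strand: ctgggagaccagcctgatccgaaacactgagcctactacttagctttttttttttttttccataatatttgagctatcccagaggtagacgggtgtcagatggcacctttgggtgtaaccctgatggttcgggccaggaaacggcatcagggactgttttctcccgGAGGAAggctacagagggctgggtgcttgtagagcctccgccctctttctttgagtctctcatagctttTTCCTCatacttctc
The core is found once in *Trem2* (at -40 from the start), once in *Cd68* (at -225) and 2 times in *Itgam* (at -84 and -15). In the exon-free part of the windows not shown, *Aif1* held 0 cores in 234 bases. *Ptprc* held 1 in a window of 249 bases and 0 in another of 70 bases. It is also in 23.3% of 32851 promoters of the same length. The core of the antioxidant response element that Nrf2 binds, TGACNNNGC, searched on both strands, is in 10.2% of these promoters and was not found in the 3 windows.

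The 10 genes did not vary as 1 group between libraries of the same kind. Correlations of their deviations from the group means over 18 libraries are given as a description, since libraries share base composition, transcript length bias and cell content. The closest pair was *Aif1* and *Tyrobp* (Pearson r = 0.89), followed by *Trem2* and *Tyrobp* (0.70), *Trem2* and *Cd68* (0.67), *Cx3cr1* and *Tmem119* (0.65) and *P2ry12* and *Trem2* (0.58). *Csf1r* ran against *Aif1* (-0.68) and *Tyrobp* (-0.46). The 5 other genes whose deviations were most like the mean of the 10 were *C1qa* (0.92), *Ctss* (0.90), *C1qb* (0.84), *Laptm5* (0.82) and *Selplg* (0.80).

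Some of the genes followed measures of the library. *Aif1* was higher in libraries with a higher short-minus-long score (r = 0.83 over 18 libraries, 0.92 within control and 0.87 within Best1-Nrf2), as was *Tyrobp* (r = 0.65, 0.91 and 0.77), and *Csf1r* was lower in them (r = -0.74, -0.77 and -0.86). The annotated exon length is 667 bases for *Tyrobp*, 1532 for *Aif1* and 5774 for *Csf1r*. *P2ry12* showed little such relation (r = 0.08, -0.02 and 0.19). With the score as a covariate, *P2ry12*, *Trem2*, *Tyrobp* and *Cx3cr1* again passed and *Aif1* did not, beside 4.37% of all genes higher and 1.64% lower.

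*Itgam* followed the ocular surface epithelium genes (r = 0.90, 0.84 within control and 0.94 within Best1-Nrf2, and 0.72 without the 2 libraries farthest from the median). The Best1-Nrf2 eyes of mice 4 and 6, where *Itgam* was lowest, also had the lowest mean log2 CPM of these epithelium genes, 4.62 and 3.06, with 5.80 to 10.4 elsewhere. The genes most like *Itgam* in their deviations, named after their values were seen, were *Coro2a*, *Pkp1*, *Zfp750*, *Vdr* and *Dsg3* (r from 0.97 to 0.98), of which *Pkp1* and *Dsg3* encode proteins of epithelial desmosomes. With the epithelium genes as a covariate the log2 fold change of *Itgam* was 0.62 (adjusted p = 0.236, edgeR). The genes most like *Csf1r* included *Sv2b* (0.97) and *Mertk* (0.96), the latter a phagocytic receptor of RPE cells and macrophages, and the correlation of *Csf1r* with RPE markers was 0.58 over 18 libraries, 0.64 within control and 0.03 within Best1-Nrf2. The part that these library differences played in the levels was not tested.

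**Figure D5:**
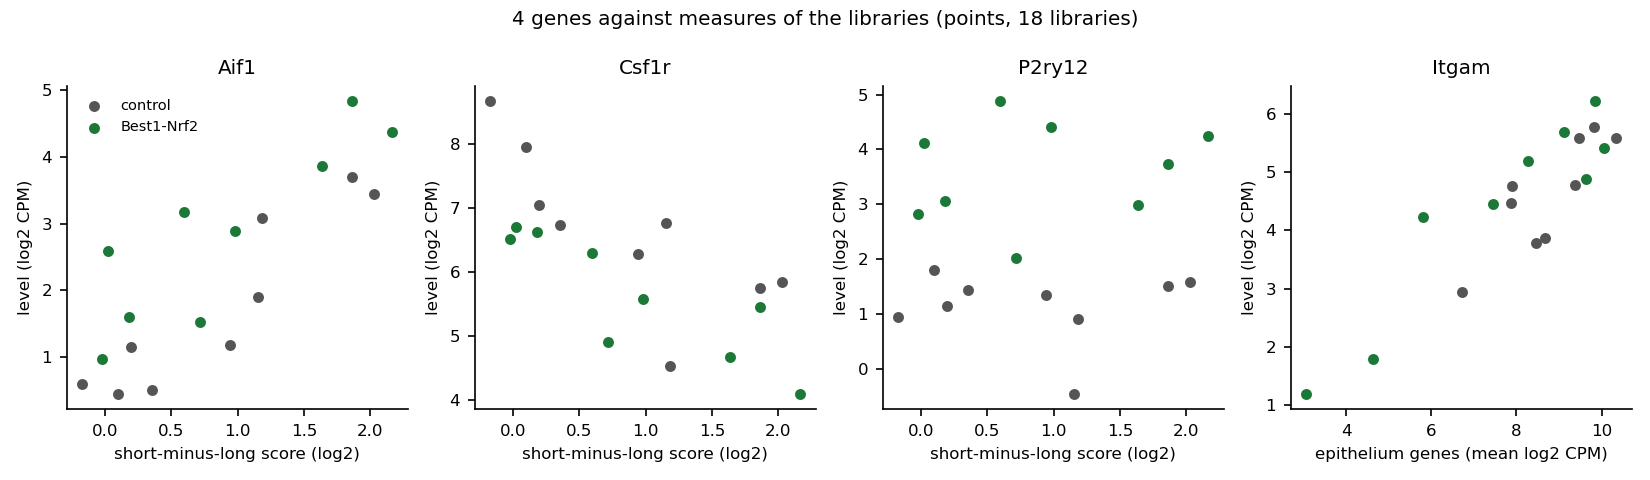
Level of 4 genes in log2 CPM (y axes) against the short-minus-long score (first 3 panels) or the mean log2 CPM of the ocular surface epithelium genes (last panel) on the x axes. Points are 18 libraries, gray for control and green for Best1-Nrf2. *Aif1* rises and *Csf1r* falls along the score in both groups, *P2ry12* is split by group at any score, and *Itgam* rises with the epithelium genes.

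Markers of other cells of the eye moved with the groups as well. Of 9 cone markers 9 were lower in Best1-Nrf2 eyes, with a summed level of 256.2 to 2038 CPM in the controls and 28.2 to 288 CPM in Best1-Nrf2 libraries, and 6 of 14 RPE markers were lower. Of the 7 rod markers tested, 2 were lower and 1 was higher. Over all genes tested, 1.13% were lower and 3.12% higher. With the mean of rod and cone markers as a covariate, the log2 fold changes were 2.12 for *P2ry12*, 1.70 for *Cx3cr1*, 2.88 for *Trem2* and 3.08 for *Tyrobp*, and the adjusted p values were between 0.0630 and 0.201. Since the marker level followed the group, their parts cannot be told apart in these libraries. Markers of fibroblasts and sclera had 1 of 8 genes higher (*Col3a1*), 1 of 9 Müller glia markers was lower (*Rlbp1*, which is also an RPE marker), and for those of melanocytes, inner retina neurons, endothelium and red blood cells 0 passed with edgeR or DESeq2. At an unadjusted p under 0.05 these last 4 lists had 2, 1, 0 and 0 genes, beside 12.8% of all genes tested. With limma voom 1 melanocyte gene was higher, beside 4.87% of all genes. The single calls of the fibroblast and Müller glia lists cannot be told from the shares over all genes.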

How the data were processed

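RNA from eyecups, labelled as RPE, of 9 *rd1* mice was amplified and sequenced, with 9 libraries per group. The study's methods give fewer pairs for this strain and age than the labels do, and all labelled pairs were used. The authors used STAR and featureCounts with mm10 and Ensembl 91, and in parallel Salmon 0.8.1, tximport and DESeq2. The deposited table holds expected counts for each gene as whole numbers, with no scaling of the libraries. The unit was inferred from the values, and which counter made the table is not stated. The libraries were sequenced in separate runs, and the labels do not assign libraries to them. No molecular identifiers are described, so totals of 18956748 to 49598700 counts bound counting error only. Symbols were found for 47224 of 47729 gene IDs, and exon lengths and positions are from GENCODE M21. No 2 libraries of a group were near duplicates.

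Here, genes were kept by filterByExpr, scaled by TMM and tested with edgeR 4.0.16 (quasi-likelihood F test, R 4.3.3), with mouse as a block and Benjamini-Hochberg adjustment over 18958 genes at 0.05. The pairing rests on the labels, which number each animal. After removal of group means, eyes of 1 mouse had a median correlation of -0.00095. Log2 CPM used a prior count of 2, and SE came from the F statistic. Sign-flip tests used numpy 2.4.6, and correlations used numpy and scipy 1.17.1. The genes, lists, contrasts and alternatives were chosen with earlier results of these data known. Beside the 10 genes and *Nfe2l2*, the text names up to 4 genes past the threshold per immune list if their mean log2 CPM was 0 or more, the highest gene of each list that did not pass, all receptor ligands, and the 5 genes most like the mean of the 10. Genes of other cell types and genes most like a single member are examples, and 2 listed genes are not reported by name here. Alternatives were RLE and upper-quartile scaling, DESeq2 1.42.0, voom with sample weights (limma 3.58.1), no filter, at least 10 counts in every library, no block, a rod and cone covariate, and each mouse left out. Covariates for the short-minus-long score (from genes whose mean log2 CPM was 3 or more) and for epithelium genes, and the omission of mice 4 and 6 together, were added after the data were seen. Scripts were tested on simulated data.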

Additional observations from a re-analysis of the deposited data

Results flagged for a closer look

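Over 26 groups of 9 libraries (the 10 genes and other summary levels, each in control and in Best1-Nrf2 libraries), the highest or lowest library was screened for a gap to its neighbor above Dixon's critical share of the range, and 4 groups had such a library, where 1.3 are expected by chance at 1 in 20. *P2ry12* was lowest in control replicate 2, at -0.47 log2 CPM, with the next library at 0.91. *Tmem119* was lowest in control replicate 3, at 1.22 log2 CPM, with the next at 2.50. *Ptprc* was highest in control replicate 3, at 2.25 log2 CPM, with the next at 1.52. *Nfe2l2* was highest among the controls in replicate 8, the smallest library, at 7.06 log2 CPM with the next at 6.60. *P2ry12* and *Nfe2l2* passed, and *Tmem119* and *Ptprc* did not pass, with any single mouse left out.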

How the results depend on the processing

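Leaving out each mouse in turn kept the calls of *Nfe2l2*, *P2ry12*, *Cx3cr1*, *Trem2* and *Tyrobp*. Without 1 mouse, *Itgam* ran from -0.23 to 0.45 and *Ptprc* from -0.28 to 0.034 (log2 fold change), genes lower among all tested from 116 to 320, resident list genes higher from 4 to 7, transcription factors from 1 to 3, and neutrophil, monocyte and signaling genes from 0 to 1 each. The number of lower genes was 116, 128, 129, 124 and 130 without mouse 1, 3, 5, 7 and 9. *Cd68* minus *P2ry12* ran from -1.92 to -1.26, *Cd68* minus *Tmem119* from -0.40 to 0.11, *Trem2* minus *P2ry12* from -0.31 to 0.14 and *Trem2* minus *Tmem119* from 1.08 to 1.62.

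Without the replicate block, 742 genes passed (647 of the 806), *Ptprc* was at 0.086, 1 border-associated macrophage gene passed, and the block changed no other call on the 10 genes. With the rod and cone covariate, *Nfe2l2* was at 1.91 and no longer passed (adjusted p = 0.0698), *Cx3cr1* was at 1.70, *P2ry12* at 2.12, *Trem2* at 2.88, *Tyrobp* at 3.08, *Itgam* at -4.01, *Aif1* at 2.42, *Ptprc* at -1.23, *Csf1r* at -1.63 and *Cd68* at 0.25. Of the 10 genes 0 passed, 38 genes were higher and 11 lower over all tested (37 of the 806 remained), and 0 genes of the resident, activation, pan-myeloid, neutrophil, ligand and transcription factor lists passed. With DESeq2, *Csf1r* was at -0.97, *Tmem119* at 0.95, *Aif1* at 1.07 and *Cd68* at 0.85, and of the 10 genes 7 were higher and 1 was lower. Over all genes 940 were higher and 538 lower, with 1 resident gene lower and 1 border-associated macrophage, 1 monocyte, 4 transcription factor and 1 signaling gene higher. With voom, *Tmem119* was at 1.14, *Aif1* at 1.10, *Cd68* at 1.00 and *Ptprc* at 0.20, and 7 of the 10 genes were higher, with 924 higher and 502 lower over all genes and 1 border-associated macrophage, 1 monocyte and 4 transcription factor genes. With upper-quartile scaling *Itgam* was at -0.036, and 1 transcription factor passed, as without a filter. The cause of these moves was not tested.

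Of the alternatives added later, the short-minus-long covariate gave -0.94 for *Csf1r*, 1.00 for *Tmem119* and -0.14 for *Itgam*, with 1 of the 10 genes and 1 resident list gene lower and 1 border-associated macrophage and 1 monocyte gene higher. The epithelium covariate gave 1.03 for *Cd68*, which then passed (edgeR adjusted p = 0.0369). With it, 5 of the 10 genes were higher, beside 3.69% of all genes tested. It gave 0.078 for *Ptprc*, with 4 transcription factors higher and 397 genes (2.09%) lower over all. Without mice 4 and 6 together *Ptprc* was at 0.15. In their lowest library *Trem2* had 19 counts and *Ptprc* 42, and whether depth limits any of these results was not tested. P values measure the spread between these animals.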

Other observations

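Counted by mouse rather than by gene, 7 to 9 of the 10 genes were higher in the Best1-Nrf2 eye of each animal. The median of the 10 within-mouse log2 differences was lowest in mouse 4 (0.25) and mouse 6 (0.69) and highest in mouse 7 (2.09). Over all genes tested, 8911 of 18958 had an estimate above 0 across the mice, and the share in each mouse is not given here. Some of the 10 genes are correlated, as given above, so they are not separate observations of an animal. These are descriptions of single animals, with no test.

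Complement genes, which microglia and macrophages express at high levels, were among the genes with the highest counts on the list of shared leukocyte genes. *C1qa* had 10.7 ± 4.06 CPM in control eyes and 44.6 ± 22.6 CPM in the fellow eyes (SD, n = 9 each), *C1qb* 12.01 ± 5.75 and 46.6 ± 26.8 CPM and *C1qc* 11.9 ± 6.22 and 47.4 ± 25.4 CPM. The log2 fold changes were 1.93, 1.83 and 1.93 (edgeR adjusted p = 0.000568, 0.00118 and 0.000717), and each gene was higher in 9 of 9 mice. The Fc receptor gene *Fcgr3* (1.72, adjusted p = 0.00191) and the lysozyme gene *Lyz2* (1.65, adjusted p = 0.000707) were also higher in 9 of 9 mice. They were named after their values were seen.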
